A study of Homo sapiens with 9 samples.

Results

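The genes described here are 7 long non-coding RNA genes of the human genome that are named as microRNA host genes: MIR3142HG, MIR155HG, MIR22HG, MIR17HG, MIR210HG, MIR31HG and MIR222HG. They were chosen by symbol from a count table of 62710 gene identifiers, with earlier results of these data known. The table pairs 6 of them with their symbol, and MIR222HG was found by its identifier ENSG00000270069, which the table leaves without a symbol. HT-29 cells, a colorectal adenocarcinoma line of wild-type genotype that serves as a model of the intestinal epithelium, were left non-stimulated, were stimulated with flagellin, or were stimulated with ADP-heptose. Each stimulus was given at 500 ng/mL for 2.5 h. There were 3 libraries of poly(A)-enriched RNA in each of the 3 groups, all from this cell line. The study asked how ADP-heptose changes transcription in epithelial cells, and used flagellin as a second bacterial stimulus to set beside it. The study describes the RNA-seq libraries of a group as coming from independent experiments, while the sample labels do not say which libraries share an experiment. The p-values measure the spread between these libraries.

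A microRNA is cut from a longer primary transcript: the Drosha complex releases a hairpin in the nucleus, Dicer trims it in the cytoplasm, and an Argonaute protein loads the mature strand and pairs its seed with target mRNAs. A host gene makes the primary transcript, and the microRNA can lie in an exon or in an intron of it. ADP-heptose is a sugar nucleotide of bacteria that the kinase ALPK1 binds in the cytosol, flagellin is the protein of the bacterial flagellum that TLR5 binds, and both receptors signal to NF-κB. The reads counted here come from poly(A)-enriched RNA of the hosts and measure the host transcripts, not the mature microRNAs.

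The 7 hosts carry 14 hairpins between them, and the main mature strand of each is shown here so that the hosts can be told apart by what they give rise to. The sequences are those of RefSeq on GRCh38.p14, written 5′ to 3′, and capitals mark the seed, bases 2 to 8. By GENCODE 29, 9 of the 14 lie in exons of the host (miR-146a, miR-155, miR-22 and the 6 of the miR-17-92 cluster) and 5 lie in introns (miR-3142, miR-210, miR-31, miR-221 and miR-222).
hsa-miR-3142: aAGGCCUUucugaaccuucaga
hsa-miR-146a-5p: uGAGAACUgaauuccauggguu
hsa-miR-155-5p: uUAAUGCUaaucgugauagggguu
hsa-miR-22-3p: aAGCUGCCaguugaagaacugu
hsa-miR-17-5p: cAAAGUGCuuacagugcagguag
hsa-miR-18a-5p: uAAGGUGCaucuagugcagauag
hsa-miR-19a-3p: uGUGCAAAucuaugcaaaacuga
hsa-miR-20a-5p: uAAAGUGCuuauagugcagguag
hsa-miR-19b-3p: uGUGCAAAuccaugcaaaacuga
hsa-miR-92a-3p: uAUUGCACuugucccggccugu
hsa-miR-210-3p: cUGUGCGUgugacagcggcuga
hsa-miR-31-5p: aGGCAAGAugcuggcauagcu
hsa-miR-221-3p: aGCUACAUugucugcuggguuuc
hsa-miR-222-3p: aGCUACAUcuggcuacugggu
The first pair belongs to MIR3142HG, miR-155 to MIR155HG, miR-22 to MIR22HG, the 6 from miR-17 to miR-92a to MIR17HG, miR-210 to MIR210HG, miR-31 to MIR31HG, and the last pair to MIR222HG. A seed was shared within a host only: miR-17-5p with miR-20a-5p, miR-19a-3p with miR-19b-3p, and miR-221-3p with miR-222-3p. Among these 14 sequences no seed was shared between different hosts.

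The libraries held 35040844 to 37537705 counts for non-stimulated cells, 30770448 to 38304035 for flagellin and 50054773 to 58272772 for ADP-heptose, so depth and the ADP-heptose group cannot be told apart. ADP-heptose replicate 3 stood apart: over 12168 genes the SD of its log2 differences was 0.378 from replicate 1 and 0.383 from replicate 2, while replicates 1 and 2 differed by 0.135 and the pairs of the other groups by 0.167 to 0.196. All 9 epithelial markers looked up were counted in at least 1 library. Their summed level was 8000 to 8370 CPM in non-stimulated, 8210 to 8530 in flagellin and 8820 to 12300 in ADP-heptose libraries. The keratins KRT8 and KRT18 had their highest counts in ADP-heptose replicate 3, at 295648 and 132297. Of the 8 tested, KRT20, a keratin of differentiated intestinal cells, alone passed the test after ADP-heptose, with a log2 fold change of 0.4 (adjusted p = 0.000941, edgeR). The intestinal transcription factors CDX1 and CDX2 were low. CDX1 had 6, 4 and 12 counts in the ADP-heptose libraries and 0 in every other library, and CDX2 had at most 48 in any library. Of 7 leukocyte markers CD3E and MS4A1 were at 0 in every library and PTPRC, the pan-leukocyte marker, did not exceed 2 counts. Their summed level, 402 to 421, 429 to 438 and 381 to 428 CPM in the same order of groups, came to 99.7% or more from LYZ, a secreted antibacterial enzyme that epithelial cells also make. ITGAM, an integrin chain of myeloid cells, had 59, 42 and 23 counts in the ADP-heptose libraries and at most 8 in any other. Its log2 fold change was 3.87 with an SE of 0.87 against non-stimulated cells (adjusted p = 0.0121, edgeR). Against flagellin it was 2.8 (adjusted p = 0.0482, edgeR). LYZ, the other leukocyte marker tested, did not pass after ADP-heptose (adjusted p = 0.983, edgeR). The part of these markers in the results was not tested. Of 7 fibroblast and endothelial markers COL1A2, DCN and CDH5 were at 0 in every library, and the summed level was 12.6 to 14.7, 12.6 to 16.1 and 17.0 to 19.3 CPM. Most of this level came from COL1A1, a collagen chain with 437 to 1019 counts, the only 1 of the 7 that was tested. COL1A1 rose after ADP-heptose with a log2 fold change of 0.41 (adjusted p = 0.0311, edgeR). In RNA of a whole culture, fewer cells that transcribe a gene and less RNA of it per cell cannot be told apart.

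Of the 7 host genes, 6 had enough counts to be tested and MIR155HG had not. After ADP-heptose 3 of the 6 rose, MIR3142HG, MIR22HG and MIR222HG, against a background of 2.89% of all 17412 genes tested that were called higher. After flagellin 1 of the 6 rose, MIR3142HG, against a background of 0.212%. In ADP-heptose-stimulated against flagellin-stimulated cells 3 of the 6 were higher, MIR3142HG, MIR22HG and MIR222HG, against 2.06% of all genes. None of the 6 was called lower in any of the 3 comparisons by edgeR or DESeq2, and none was lower at an unadjusted p under 0.05. A gene was called at an adjusted p under 0.05 in edgeR's quasi-likelihood test and a change of at least 2-fold. Since the 7 were chosen with earlier results of these data known, the shares beside them are a description and not a test. The median log2 fold change of the 6 was 0.58, -0.05 and 0.64 in the 3 comparisons, where that of all genes tested was 0.01, 0.0 and 0.01. The comparisons share libraries, since the non-stimulated group serves both stimuli, so their counts are not independent of each other. Without ADP-heptose replicate 3 the calls numbered 2 in both comparisons with ADP-heptose, where MIR222HG fell under the 2-fold limit, and 1 for flagellin.

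**Figure D1:**
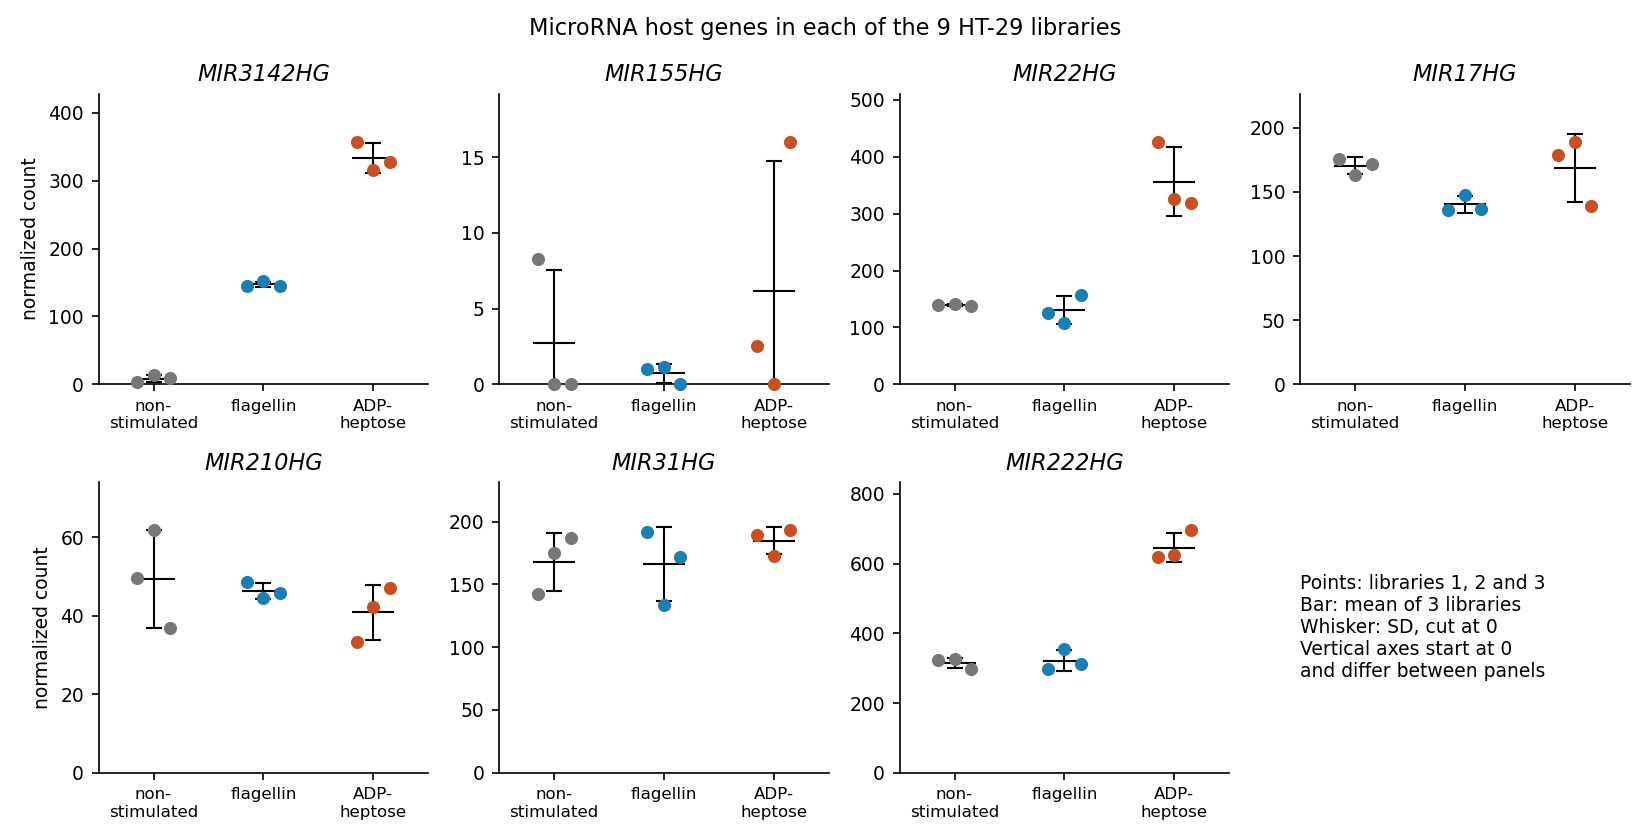
Normalized counts (vertical axis, starting at 0, a different scale in each panel) of the 7 host genes in the non-stimulated, flagellin and ADP-heptose groups; each point is 1 library, the bar is the mean of 3 libraries and the whisker the SD, cut at 0. MIR3142HG rises in 2 steps from at most 13.5 to at least 145 and at least 315, MIR22HG and MIR222HG stand out in the ADP-heptose group alone, and the points of MIR31HG and MIR210HG mix between groups.

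MIR3142HG (ENSG00000253522, chr5:160438594-160487426, plus strand) is the host of miR-146a, a microRNA known as an NF-κB-induced brake on Toll-like receptor and interleukin-1 receptor signalling. It was close to silent in non-stimulated cells, with normalized counts of 3.09, 13.5 and 8.65 (raw counts 3, 12 and 8). Flagellin-stimulated cells gave 145, 152 and 145, and ADP-heptose-stimulated cells 357, 315 and 328. The 3 groups did not overlap, and each stimulated group was tight, with an SD of 4.09 around a mean of 147 for flagellin and of 21.3 around 333 for ADP-heptose (n = 3 each). ADP-heptose raised MIR3142HG 39.7-fold, or by 5.31 on the log2 scale with an SE of 0.26 (adjusted p = 3.3e-08, edgeR). Flagellin raised it 17.6-fold, or by 4.14 with an SE of 0.28 (adjusted p = 6.65e-06, edgeR). These folds rest on few counts in the non-stimulated group, and their 95% confidence intervals run from 26.8 to 58.9 for ADP-heptose and from 11.6 to 26.6 for flagellin. The step between the stimuli rests on 114 counts or more in every library of both groups: the level after ADP-heptose was 2.26-fold that after flagellin (95% confidence interval 1.72 to 2.96, adjusted p = 0.001, edgeR). Without ADP-heptose replicate 3 the log2 fold changes were 5.33 against non-stimulated cells and 1.2 against flagellin.

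MIR22HG (ENSG00000186594, chr17:1711493-1717174, minus strand) holds miR-22 in an exon and is known as a host transcript that rises under cellular stress. Its normalized counts were 139, 141 and 138 in non-stimulated cells and 125, 108 and 157 after flagellin, so these groups overlapped. After ADP-heptose they were 426, 325 and 318, all above the highest of the other 6 libraries. The rise of MIR22HG under ADP-heptose was 2.55-fold, or 1.35 on the log2 scale, with an SE of 0.16 (adjusted p = 0.000112, edgeR). ADP-heptose-stimulated cells held 2.75-fold the level of flagellin-stimulated cells, a log2 difference of 1.46 with an SE of 0.16 (adjusted p = 8.94e-05, edgeR). Flagellin against non-stimulated cells gave a log2 fold change of -0.11 with a 95% confidence interval from -0.49 to 0.27 (adjusted p = 1.0, edgeR). Without ADP-heptose replicate 3 the log2 fold changes after ADP-heptose were 1.43 against non-stimulated cells and 1.55 against flagellin. WDR81, a protein-coding gene on the opposite strand, overlaps MIR22HG with 0 shared exon bases and had a log2 fold change of -0.26 after ADP-heptose (adjusted p = 0.0588, edgeR). Since the strand setting of the counting is not given in the sources used here, reads of overlapping transcripts on opposite strands cannot be told apart.

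MIR222HG (ENSG00000270069, chrX:45745211-45770274, minus strand) holds miR-221 and miR-222 in an intron, a pair with the same seed that is known to target inhibitors of the cell cycle. The normalized counts were 323, 325 and 299 in non-stimulated cells, 299, 355 and 311 after flagellin, and 618, 625 and 695 after ADP-heptose. The first and second groups overlapped and the third lay above every other library. The rise of MIR222HG under ADP-heptose was 2.04-fold, or 1.03 on the log2 scale, with an SE of 0.1 (adjusted p = 2.27e-05, edgeR). Its level after ADP-heptose was 2.01-fold that after flagellin, a log2 difference of 1.01 with an SE of 0.1 (adjusted p = 4.06e-05, edgeR). Both values lie at the 2-fold limit, and their 95% confidence intervals of 1.75 to 2.39 and 1.72 to 2.35 reach below it. Against non-stimulated cells the log2 fold change was 0.89 when libraries were scaled by their totals, 0.98 without ADP-heptose replicate 3 and 0.99 without non-stimulated replicate 3, so there MIR222HG was not called by the 2-fold rule, while its adjusted p stayed under 0.05 in all 16 alternatives run. Against flagellin it was 0.88 with library totals, 0.96 without ADP-heptose replicate 3, 0.95 without flagellin replicate 1 and 0.98 without flagellin replicate 3, and it was just under the limit, at 1.0 after rounding, with a minimum mean of 10 counts. Flagellin against non-stimulated cells gave 0.03 with a 95% confidence interval from -0.21 to 0.26 (adjusted p = 1.0, edgeR). Scaling by library totals also moved the median over all genes tested on that scale, to -0.13 for ADP-heptose against non-stimulated cells and to -0.11 against flagellin.

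The other 3 hosts tested did not pass the test in any comparison. MIR17HG (ENSG00000215417, chr13:91347820-91354579, plus strand) carries the miR-17-92 cluster, which is known as a MYC target and an oncogene. Its normalized counts were 176, 163 and 172 in non-stimulated cells, 136, 148 and 137 after flagellin, and 179, 189 and 139 after ADP-heptose. The flagellin libraries all lay below the non-stimulated ones, with a log2 fold change of -0.28 and a 95% confidence interval from -0.61 to 0.05 (adjusted p = 1.0, edgeR). After ADP-heptose it was -0.01 with an interval from -0.32 to 0.31 (adjusted p = 0.977, edgeR), and 0.12 without replicate 3, the library with 139. MIR31HG (ENSG00000171889, chr9:21455642-21559669, minus strand) holds miR-31 in an intron. It gave 142, 175 and 187 in non-stimulated cells, 192, 134 and 172 after flagellin, and 189, 173 and 193 after ADP-heptose, and the 3 groups overlapped. The log2 fold change was 0.14 after ADP-heptose (95% confidence interval -0.21 to 0.49, adjusted p = 0.629, edgeR) and -0.01 after flagellin (-0.37 to 0.35, adjusted p = 1.0, edgeR). MIR210HG (ENSG00000247095, chr11:565660-568457, minus strand) holds miR-210, the microRNA best known for its induction in hypoxia. Its normalized counts of 49.5, 61.7 and 36.8 in non-stimulated cells, 48.6, 44.6 and 45.9 after flagellin and 33.3, 42.1 and 47.1 after ADP-heptose overlapped. The log2 fold changes were -0.27 (95% confidence interval -0.82 to 0.28, adjusted p = 0.533, edgeR) and -0.09 (-0.64 to 0.47, adjusted p = 1.0, edgeR). The intervals of MIR17HG and MIR31HG leave out a change of 2-fold in either direction for both stimuli, as do those of MIR210HG, which are the widest.

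MIR155HG (ENSG00000234883, chr21:25561909-25575168, plus strand) gives rise to miR-155, a microRNA of activated leukocytes. It was counted 8, 0 and 0 times in the non-stimulated libraries, 1, 1 and 0 times in the flagellin libraries, and 3, 0 and 18 times in the ADP-heptose libraries. The highest and the lowest count of the ADP-heptose group were 18 and 0, and the 18 came from replicate 3, the library that stood apart. With no filter on low counts the log2 fold change after ADP-heptose was 1.06 with an SE of 1.15 (adjusted p = 0.673, edgeR). A difference was thus not detectable at this depth. Libraries with a count of 0 do not show that the transcript was absent, since a count of 0 allows up to 3 counts, and no fold is given for flagellin, where no library had more than 1 count.

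**Figure D2:**
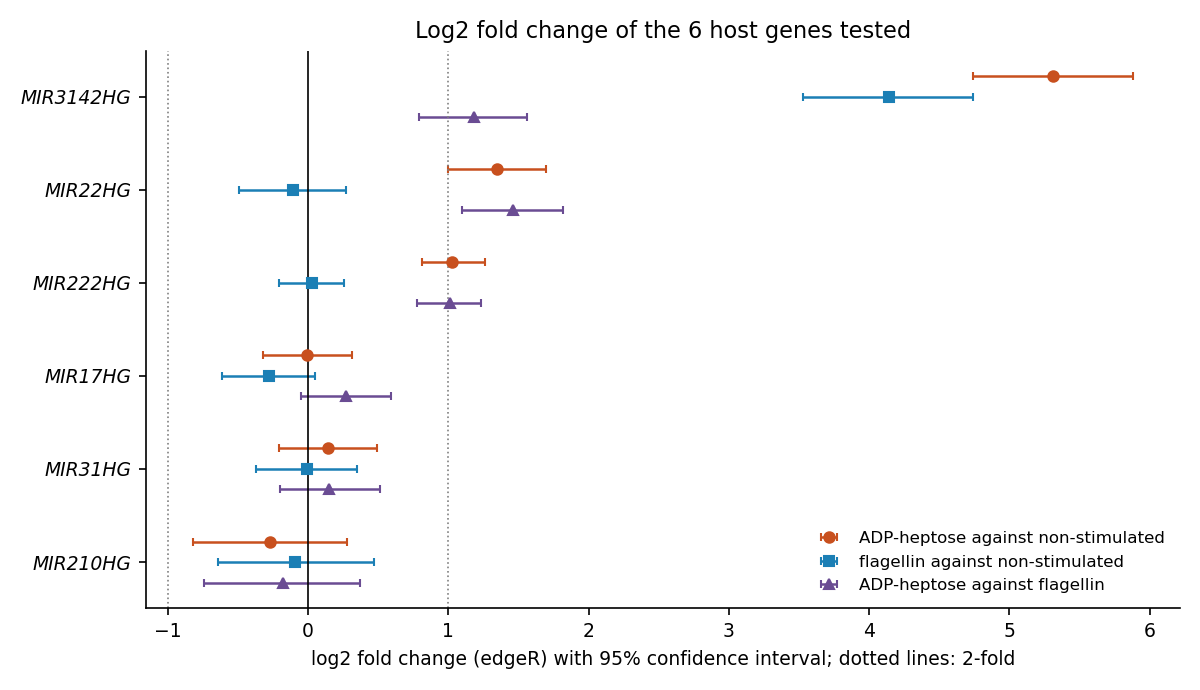
Log2 fold changes (horizontal axis) of the 6 host genes tested, with 95% confidence intervals derived from the edgeR F test. Circles are ADP-heptose against non-stimulated, squares flagellin against non-stimulated and triangles ADP-heptose against flagellin, and dotted lines mark 2-fold. MIR3142HG lies at 5.31 and 4.14 for the stimuli, MIR22HG and MIR222HG lie beyond 1 in both ADP-heptose comparisons and near 0 for flagellin, and the intervals of the other 3 genes include 0.

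Per length of exon, the order of the hosts by their mean level was the same after both stimuli and differed from that in non-stimulated cells (RPKM, the count scaled by library size and by the exon length of GENCODE 29). In non-stimulated cells MIR31HG was highest, at 5.6 ± 0.771 RPKM (SD, n = 3), followed by MIR222HG at 2.81 ± 0.126, MIR17HG at 1.21 ± 0.0495 and MIR22HG at 1.16 ± 0.0126. MIR210HG followed at 0.527 ± 0.133, MIR3142HG at 0.0876 ± 0.0541 and MIR155HG at 0.0426 ± 0.0738. MIR17HG and MIR22HG overlapped in this order, and so did MIR3142HG and MIR155HG. After flagellin MIR3142HG moved up to the third place, at 1.54 ± 0.0424 RPKM, above every library of MIR22HG and MIR17HG, which overlapped. After ADP-heptose it stood at 3.48 ± 0.222 RPKM, in an overlapping pair with MIR22HG at 2.96 ± 0.499, below MIR31HG at 6.16 ± 0.357 and MIR222HG at 5.75 ± 0.378, which overlapped each other. MIR17HG, MIR210HG and MIR155HG closed the order after ADP-heptose at 1.2, 0.437 and 0.0956 RPKM, with no overlap between them.

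**Figure D3:**
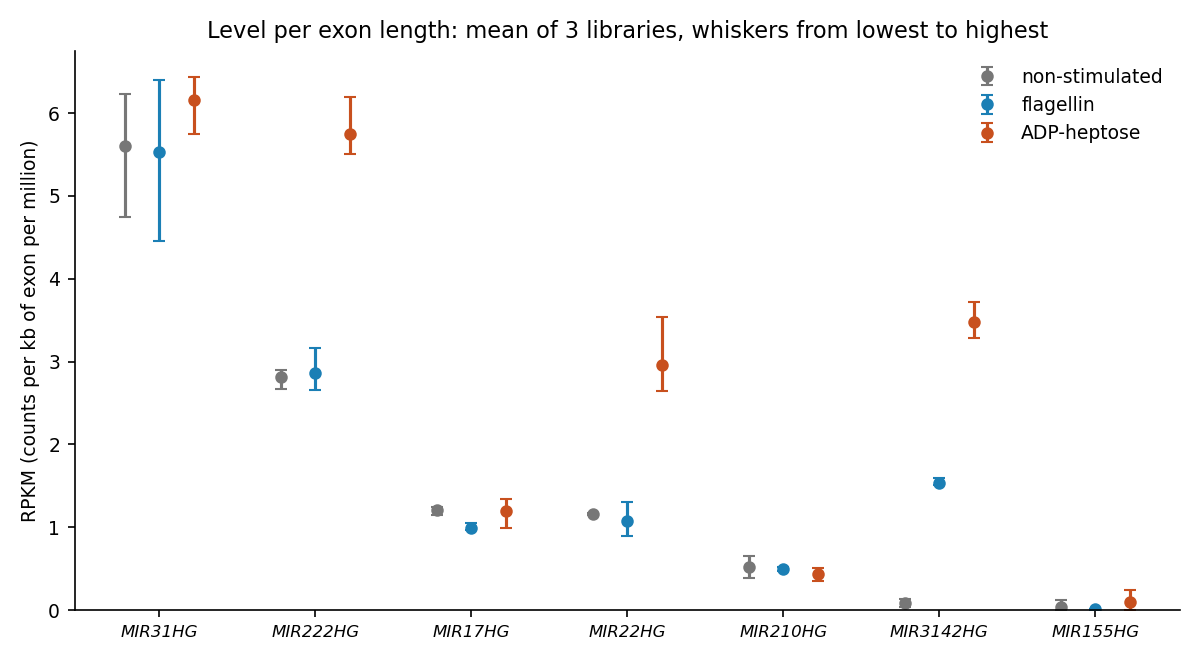
Level per exon length in RPKM (vertical axis, starting at 0) of the 7 host genes, ordered by their level in non-stimulated cells; points are means of 3 libraries and whiskers run from the lowest to the highest library. MIR31HG stays between 4.46 and 6.43 RPKM in all groups, while MIR3142HG goes from 0.0876 through 1.54 to 3.48.

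The promoters of the 3 hosts that rose after ADP-heptose are shown because these genes moved in the same direction there. Each run is 300 bases of RefSeq on GRCh38.p14, from 250 before to 50 after the RefSeq start, on the strand of the gene: chr5:160468001-160468300 on the plus strand for MIR3142HG, chrX:45770218-45770517 on the minus strand for MIR222HG and chr17:1716161-1716460 on the minus strand for MIR22HG. Capitals mark matches to the motifs searched, which were the NF-κB consensus, the AP-1 motif TGANTCA, the E-box CACGTG and the hypoxia response core ACGTG that the E-box contains, on both strands.
MIR3142HG promoter: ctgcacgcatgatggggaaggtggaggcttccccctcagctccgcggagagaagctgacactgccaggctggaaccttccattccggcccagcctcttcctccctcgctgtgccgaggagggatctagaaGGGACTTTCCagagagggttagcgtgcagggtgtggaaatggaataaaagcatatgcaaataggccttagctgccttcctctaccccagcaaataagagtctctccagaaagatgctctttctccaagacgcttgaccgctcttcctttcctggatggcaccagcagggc
MIR222HG promoter: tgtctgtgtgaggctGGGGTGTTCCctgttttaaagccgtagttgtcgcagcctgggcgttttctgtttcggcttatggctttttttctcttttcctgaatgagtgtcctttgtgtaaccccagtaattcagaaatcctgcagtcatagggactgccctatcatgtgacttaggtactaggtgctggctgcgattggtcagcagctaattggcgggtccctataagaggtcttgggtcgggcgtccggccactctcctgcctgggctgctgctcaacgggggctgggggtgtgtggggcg
MIR22HG promoter: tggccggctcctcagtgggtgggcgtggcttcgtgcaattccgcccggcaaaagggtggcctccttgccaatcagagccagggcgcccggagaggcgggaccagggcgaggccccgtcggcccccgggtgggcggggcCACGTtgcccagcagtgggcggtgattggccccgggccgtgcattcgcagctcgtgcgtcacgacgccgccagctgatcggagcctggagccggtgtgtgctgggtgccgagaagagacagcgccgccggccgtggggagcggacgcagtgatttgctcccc
The promoter of MIR3142HG held a match to the NF-κB consensus, GGGACTTTCC, starting 120 bases before the start, and that of MIR222HG held GGGGTGTTCC, 235 bases before it. The promoter of MIR22HG held no match to it and had the hypoxia core as its reverse complement, CACGT, 112 bases before the start. Of the other promoters, that of MIR155HG held an AP-1 match, TGAGTCA, at 60 bases and a hypoxia core at 31 bases before the start, that of MIR210HG held a hypoxia core at 170 bases, and those of MIR17HG and MIR31HG held none of the 4 motifs. Among 35116 RefSeq promoters of the same length 11.3% held the NF-κB consensus, 7.71% the AP-1 motif, 7.26% the E-box and 21.4% the hypoxia core. A match is a description of letters in this window and not a binding site. RefSeq places the start of MIR3142HG inside the gene that GENCODE 29 gives, whose outer end lies at 160438594, so the window describes the RefSeq start only. The same holds for MIR22HG, on the minus strand, whose outer end in GENCODE 29 lies at 1717174, beyond its window.

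The genes beside the hosts were looked up on each side. MIR3142HG lies 9.8 kb from PTTG1, securin of mitosis, which had a log2 fold change of 0.2 after ADP-heptose (adjusted p = 0.318, edgeR), and 75.7 kb from ATP10B, also at 0.2 (adjusted p = 0.502, edgeR). MIR22HG lies 1.1 kb from TLCD2, at 0.14 (adjusted p = 0.646, edgeR). For MIR222HG the nearest gene tested on the higher side, LINC02595, was 77.8 kb away and at 0.14 (adjusted p = 0.753, edgeR). None of these 4 neighbours passed the test after either stimulus. IFNE, the gene of interferon epsilon, lies inside MIR31HG on the same strand with 0 shared exon bases, and it rose after ADP-heptose while its host gave 0.14. IFNE had 31, 33 and 15 counts in non-stimulated libraries, 23, 38 and 34 after flagellin, and 92, 93 and 87 under ADP-heptose, which is 1.37 on the log2 scale (adjusted p = 0.0135, edgeR). IFNWP19, a pseudogene on the opposite strand that shares 303 exon bases with MIR31HG, had at most 1 count in any library. SLITRK6, the nearest tested gene on the lower side of MIR17HG, fell after ADP-heptose with a log2 fold change of -1.35 (adjusted p = 3.99e-06, edgeR), at a distance of 5541.1 kb.

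The 14 hairpins have rows of their own in the table, and 10 of them were at 0 in every library. MIR221 had 4, 4 and 3 counts in non-stimulated, 4, 2 and 1 in flagellin and 9, 15 and 5 in ADP-heptose libraries. MIR210, MIR31 and MIR222 did not exceed 4 counts, and none of the 14 was tested. The 9 hairpins that lie in host exons were all at 0. How reads that overlap a hairpin and its host were counted is not given in the sources used here, and its part in these counts was not tested. Libraries of this kind leave out the mature strands, so these rows do not give microRNA levels.

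Genes whose profile over the 9 libraries came closest to a host were named by the root mean square of the differences in log2 CPM, each profile centred on its own mean, among 12168 genes. Closest to MIR3142HG were TNFAIP2, a gene induced by tumour necrosis factor, at 0.728, CD83, a surface protein of activated immune cells, at 0.841, and ANKRD33B at 0.855. Their log2 fold changes after ADP-heptose were 6.3, 4.51 and 4.94, and after flagellin 3.7, 2.28 and 2.51, where MIR3142HG had 5.31 and 4.14. Closest to MIR22HG were the pseudogene ROCK1P1 at 0.164, TRIB1, a pseudokinase, at 0.182 and PNRC1, a nuclear receptor coactivator, at 0.183, with log2 values of 1.51, 1.25 and 1.52 for ADP-heptose and of 0.04, 0.03 and 0.11 after flagellin. Closest to MIR222HG were DDIT4, a stress-induced inhibitor of mTORC1 signalling, at 0.0826, PARD6B, a cell polarity protein, at 0.085 and NMRAL2P at 0.0851, with 1.03, 1.07 and 0.99 after ADP-heptose. MIR17HG was closest to NIN, a centrosome protein, at 0.0601, MIR31HG to the pseudogene HSPD1P1 at 0.0653 and MIR210HG to GNAZ, a G protein subunit, at 0.106. All profiles share the same libraries and their depth, and the distances are a description.

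Outside the 7, the table names 78 further genes as a microRNA host by the same form of symbol, of which 28 were at 0 in every library and 24 were tested. After ADP-heptose 2 of the 24 rose and 1 fell at an adjusted p under 0.05, against 7.48% and 4.42% of all genes tested. With the 2-fold limit added, 1 of the 24 was called higher, against 2.89% of all genes tested. MIR23AHG, the host of the miR-23a, miR-27a and miR-24-2 cluster, was the largest rise, from 771, 633 and 679 counts in non-stimulated and 816, 734 and 524 in flagellin libraries to 4094, 5047 and 3762 in ADP-heptose libraries. Its log2 fold change was 2.21 (adjusted p = 1.28e-08, edgeR), and after flagellin it was 0.07 (adjusted p = 1.0, edgeR). MIRLET7BHG rose by a log2 fold change of 0.69 (adjusted p = 0.0153, edgeR), and MIR29B2CHG had a log2 fold change of -0.74 (adjusted p = 0.0396, edgeR). After flagellin 0 of the 24 passed the test in edgeR and 0 in DESeq2, 1 had an unadjusted p under 0.05, and the background was 0.368% of all genes higher and 0.0115% lower. Of the 24, MIR23AHG alone passed between the stimuli, with 2.14 (adjusted p = 2.77e-08, edgeR), where 5.4% of all genes were higher after ADP-heptose than after flagellin and 2.76% lower. The median of the 24 was -0.0 after ADP-heptose and -0.01 after flagellin. Of 24 genes that carry microRNAs in their introns, 3 rose and 1 fell after ADP-heptose, against the same 7.48% and 4.42% of all genes. They were VMP1, the host of miR-21, with 0.8 (adjusted p = 2.74e-06, edgeR), ARRB1 with 0.33, SREBF1 with 0.3 and PANK1 with -0.54. None of these changes reached 2-fold. After flagellin 0 of these 24 passed in edgeR or in DESeq2, and 1 had an unadjusted p under 0.05.

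Of 19 genes whose proteins process and load microRNAs 18 were tested, and LIN28B, an inhibitor of let-7 maturation, was at 0 in every library. After ADP-heptose 2 of the 18 rose and 1 fell, where 7.48% of all genes tested were higher and 4.42% lower. The risers were AGO2, the slicing Argonaute, with a log2 fold change of 0.7 (adjusted p = 0.018, edgeR) and DDX5, a helicase of the Drosha complex, with 0.41 (adjusted p = 0.000992, edgeR). TNRC6A, a silencing partner of the Argonautes, was at -0.44 (adjusted p = 0.0445, edgeR). The median of the 18 was -0.07, and after flagellin 0 of the 18 passed in edgeR or DESeq2, nor did any have an unadjusted p under 0.05. AGO2 had 21432, 24791 and 11535 raw counts in the ADP-heptose libraries, the lowest of them in replicate 3, and 7412 to 9827 in the other 6. The ADP-heptose libraries were deeper, and after scaling replicate 3 did not lie above all of the other groups' libraries. Normalized, the mean was 15300 with an SD of 4340 after ADP-heptose. It was 10300 with an SD of 442 after flagellin and 9410 with an SD of 966 in non-stimulated cells.

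Among 15 transcription factors known to act on these hosts, 9 rose after ADP-heptose and 3 after flagellin, against 7.48% and 0.368% of all genes tested, and the medians were 0.95 and 0.1. The NF-κB subunit genes NFKB2 and RELB, of the non-canonical pathway, rose by 3.24 and 3.12 on the log2 scale with ADP-heptose and by 1.08 and 1.09 with flagellin. NFKB1 rose by 2.01 and 0.65. Between the stimuli 9 of the 15 were higher under ADP-heptose, against 5.4% of all genes, and MYC was lower, at -0.24 (adjusted p = 0.0463, edgeR). FOSL1, an AP-1 subunit, had 2.64 after ADP-heptose (adjusted p = 2.03e-10, edgeR) and 0.16 after flagellin (adjusted p = 1.0, edgeR). Factors that did not pass after ADP-heptose included MYC at -0.14, E2F1 at -0.06, E2F3 at 0.14, HIF1A at -0.04 and EPAS1 at -0.11. Of 12 hypoxia-inducible genes, the group with which MIR210HG is usually named, 2 rose after ADP-heptose, DDIT4 with 1.03 and VEGFA with 0.51, and KDM3A fell, at -0.32 (adjusted p = 0.0139, edgeR). These are 2 and 1 of 12, against 7.48% and 4.42% of all genes. The median of the 12 was 0.06, and CA9, a classical hypoxia marker, was at 0.12 (adjusted p = 0.495, edgeR).

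Textbook targets of the hosted microRNAs were also counted, as mRNA levels, against the same background of 7.48% of all genes higher and 4.42% lower after ADP-heptose. The miR-146a targets IRAK1, a kinase, and TRAF6, an adaptor, both of Toll-like receptor signalling, stood at 0.15 and -0.1 on the log2 scale under ADP-heptose. Neither passed the test in edgeR or DESeq2 or had an unadjusted p under 0.05. Of 3 tested targets of miR-221 and miR-222, BBC3, a pro-apoptotic protein, rose with 2.19 (adjusted p = 8.87e-08, edgeR) and CDKN1B, the cell cycle inhibitor p27, fell with -0.37 (adjusted p = 0.00217, edgeR), while KIT and TIMP3 were at 0 in every library. Of 6 targets of the miR-17-92 cluster, CDKN1A, the inhibitor p21, rose with 2.72 and THBS1, thrombospondin, with 1.06, and TGFBR2 and BCL2L11 fell with -0.65 and -0.47. Of 5 tested targets of miR-155, 2 rose, BACH1 with 1.1 and CEBPB with 0.93, and 1 fell. The 4 targets of miR-210 and the 4 of miR-31 gave 0 genes that passed in edgeR. Of the former 2 had an unadjusted p under 0.05 and 1 passed in DESeq2, and of the latter 0 did either. After flagellin 0 of all 24 targets tested passed in edgeR or DESeq2, and 4 had an unadjusted p under 0.05.

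**Figure D4:**
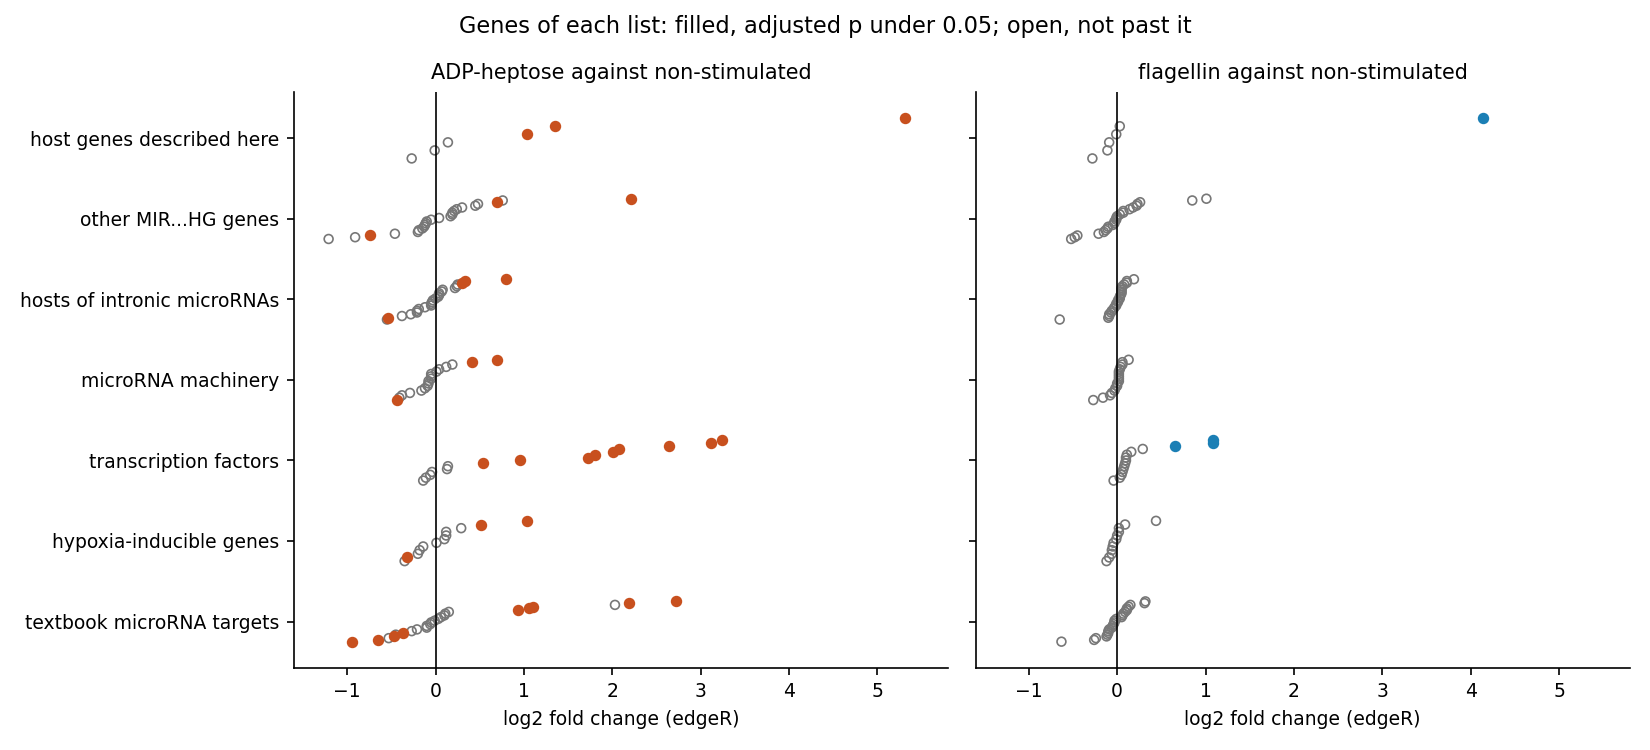
Log2 fold changes (horizontal axis) of the tested genes of 7 lists after ADP-heptose (left) and flagellin (right); each point is a gene, ordered by its value within the row, filled where the adjusted p was under 0.05. After ADP-heptose MIR3142HG at 5.31 lies furthest right of all genes shown, and after flagellin the filled points are MIR3142HG at 4.14 and 3 transcription factors.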

How the data were processed

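The 9 libraries were grouped by their labels. Poly(A)-enriched RNA was sequenced in paired reads of 150 bases, and the authors aligned them with HISAT2 and made the deposited table of raw counts per gene with featureCounts. Versions, genome build, annotation, strand setting and the treatment of multimapping reads are not given in the sources used here. The table holds 62972 lines for 62710 identifiers, and 232 identifiers listed more than once, with identical counts, were used once. Of the identifiers 92.9% are in GENCODE 29, which gave positions, gene types and exon lengths.

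Counts were fitted in edgeR 4.0.16 (R 4.3.3) with TMM scaling, filterByExpr, all 9 libraries in 1 fit without a block, and the robust quasi-likelihood F test, adjusted by Benjamini and Hochberg over 17412 genes. The script was tested on simulated data. Normalized counts were obtained by scaling every library to the geometric mean of the TMM-corrected library sizes. Intervals from edgeR cover the spread between libraries.

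The members and the gene lists were chosen with earlier results of these data known. Genes outside the 7 were named by rule: up to 3 per list and direction with the largest change among those with an adjusted p under 0.05, other host genes by symbol, the nearest tested or overlapping gene, and the 3 closest profiles; others are named as levels. Some members of the lists are counted but not reported by name here. Alternatives were DESeq2 1.42.0 and its size factors, library totals, no filter, a minimum mean of 10 counts, 6 libraries, a replicate block, no fold threshold, and each library left out. Sequences were copied from RefSeq tables, where 14 of 14 hairpins and 7 of 7 promoters matched.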

Additional observations from a re-analysis of the deposited data

How the results depend on the processing

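Of the 6 host genes tested, MIR3142HG passed an adjusted p of 0.05 under all 16 alternatives in each comparison, and MIR22HG and MIR222HG did so in both comparisons with ADP-heptose. The log2 fold change of MIR3142HG ranged from 4.9 to 5.81 after ADP-heptose, from 3.73 to 4.64 after flagellin and from 1.06 to 1.21 between the stimuli. That of MIR22HG ranged from 1.19 to 1.43 against non-stimulated cells and from 1.31 to 1.61 against flagellin, and that of MIR222HG from 0.89 to 1.05 and from 0.88 to 1.08. The host genes called thus numbered 2 or 3 in each comparison with ADP-heptose and 1 for flagellin. Directions turned only in values near 0 that did not pass the test, when a single library was left out. MIR17HG then ranged from -0.11 to 0.12 after ADP-heptose (turned to 0.12 without ADP-heptose replicate 3 and to 0.02 without non-stimulated replicate 1). After flagellin MIR22HG ranged from -0.27 to 0.00035, MIR210HG from -0.26 to 0.1, MIR31HG from -0.14 to 0.11 (turned also at 0.01 and 0.07), and MIR222HG from -0.06 to 0.07 (turned also at -0.01). Over all genes, dropping the 2-fold threshold gave 2072 calls in place of 586 after ADP-heptose, 66 in place of 39 after flagellin and 1421 in place of 409 between the stimuli, and with no filter on low counts flagellin gave 68. Deviations of same-numbered libraries from their group means correlated between -0.379 and 0.222, and those of different-numbered libraries between -0.378 and 0.43. With 3 libraries a group, and ADP-heptose replicate 3 standing apart, these values cannot show which libraries share an experiment. With the replicate number as a block the calls numbered 523, 33 and 376, and those among the host genes 3, 1 and 3. Depth limits MIR155HG and the non-stimulated level of MIR3142HG.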
